A study of Saccharomyces cerevisiae with 6 samples.

Results

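The introns described here lie in 49 genes for proteins of the large (60S) ribosomal subunit of budding yeast. They were chosen by name from a list of RPL genes that runs from RPL2 to RPL43, and they make up 49 of the 309 introns, in 298 genes, that the libraries covered. They fall into 22 pairs of gene copies, named A and B, and 5 genes with a single copy on the list: RPL25, RPL28, RPL29, RPL32 and RPL39. The table also held 10 introns of 8 other large subunit genes (RPL7A, RPL7B, RPL22A, RPL22B, RPL24A, RPL24B, RPL30 and RPP1B), 45 introns of small subunit genes (RPS) and 205 introns of other genes, a class set by gene name that also holds ASC1, of the small subunit, and the mitochondrial ribosomal protein genes MRPL44 and YML6. All 49 list members had a mean of at least 10 reads per library and entered every test, as did 274 of the 309 introns.

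The assay was MPE-seq, multiplexed primer extension sequencing. Reverse transcription starts from a pool of primers, each set in the exon after an intron, and a read crosses the place where the intron was or still is. The strain EJS7 carries prp2-1, a temperature-sensitive allele of the spliceosomal ATPase Prp2, and the strain EJS1 is wild type (WT). There were 3 libraries of each, replicates A, B and C, and nothing in the labels says that they came from separate cultures, so p-values measure the spread between these libraries, which may be technical. Cells of both strains were cultured in rich medium (YPD) at 25 °C until mid-log phase and were then held at 37 °C for 15 minutes before collection, so that the WT cells went through the same heat shift as the mutant.

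Budding yeast has few introns, and ribosomal protein genes hold a large share of them and an even larger share of the transcripts that need splicing. Most of these genes exist as a pair of copies that encode the same or nearly the same protein, while their introns have diverged. Prp2 remodels the assembled spliceosome just before the branch point adenosine attacks the 5′ splice site, so a spliceosome that lacks its activity holds a pre-mRNA that has not been cut.

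The library totals were 1845258, 2671271 and 2269285 reads in prp2-1 libraries A, B and C, and 1612685, 1983661 and 2516774 reads in the WT libraries. The 49 introns took 43.5% ± 0.697 of all reads in prp2-1 and 44.5% ± 0.631 in WT (values after ± are SDs over n = 3 libraries, also further on). Reads of HMRA1, which encodes the a1 mating-type regulator, came to 3.25, 0.374 and 0.881 RPM (reads scaled to the library total) in prp2-1 libraries A, B and C, against 3040, 2825 and 2593 RPM in the WT libraries. Reads of 13 meiotic genes, both types together, summed to 267, 231 and 450 RPM in prp2-1, against 123, 143 and 154 RPM in WT. The higher sum was in unspliced reads, which numbered 453, 559 and 972 in prp2-1 against 127, 175 and 216 in WT. Their spliced reads numbered 39, 59 and 49 in prp2-1 against 72, 108 and 172 in WT. The strains thus differed in a mating-type transcript, HMRA1, in every library. The part of this in the values below was not tested and cannot be told apart from that of prp2-1 in this design. PRP2 itself has no intron in the table and was not measured.

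Most of the introns carried the consensus splice signals of budding yeast. Of the 49 introns, 47 were placed on build R64 from the coding exons of its annotation, and RPL29 and RPL32 were not placed. Their median length was 414 bases, between 147 bases in RPL2A and 561 bases in RPL27A, against a median of 97 bases over 189 placed introns of the other genes. The hexamer GTATGT, read on the intron's strand at its first base, stood in 39 of the 47 introns (83.0%), against 65.7% of placed RPS introns and 72.5% of those of other genes. The branch point heptamer TACTAAC, searched on the intron's strand in its last 200 bases, was found in 46 of 47, all but RPL19A, against 91.4% of RPS introns and 77.2% of those of other genes. The 3′ end read TAG in 25 introns and CAG in 22. No other annotated gene overlapped any of the 47.

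The introns of the RPL34 pair are shown because the change in prp2-1 differed strongly between its copies. Those of RPL20 are shown because its copies differ in the 5′ splice site itself, as do those of RPL40 and RPL43. RPL18B is shown because, like RPL34A, it did not pass the test, and RPL14A as the member with the largest change. Capitals mark the 6 bases of the 5′ splice site and the branch point heptamer, and each pair of runs gives the first 12 bases of the intron and the stretch from 3 bases before the heptamer to the intron's last base. The introns lie on R64 at chrV:269752-270148 (RPL34A, minus strand), chrIX:256555-257026 (RPL34B, minus), chrXIV:64019-64450 (RPL18B, minus), chrXIII:753743-754219 (RPL20A, minus), chrXV:900768-901193 (RPL20B, minus) and chrXI:432035-432432 (RPL14A, plus). Each lies between coding exons.
RPL34A start: GTATGTtaaagg
RPL34A end: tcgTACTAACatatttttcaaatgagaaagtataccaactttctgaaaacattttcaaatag
RPL34B start: GTATGTtactga
RPL34B end: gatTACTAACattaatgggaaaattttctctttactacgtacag
RPL18B start: GTATGTattgaa
RPL18B end: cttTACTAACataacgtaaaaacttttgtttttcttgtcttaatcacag
RPL20A start: GTGAGTaaatac
RPL20A end: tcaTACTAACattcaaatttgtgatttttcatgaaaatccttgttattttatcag
RPL20B start: GTATGTaataga
RPL20B end: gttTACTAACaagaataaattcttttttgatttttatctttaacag
RPL14A start: GTATGTtaaatc
RPL14A end: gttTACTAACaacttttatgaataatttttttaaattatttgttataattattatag

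The copies of RPL34 carry the same 5′ splice site and branch point letters. Elsewhere they differ, the stretch between the branch point and the 3′ end included. Their introns of 397 (A) and 472 (B) bases were 54.4% identical over the whole length. From the branch point adenosine to the intron's last base, RPL34A has 53 bases, RPL34B has 35 and RPL18B has 40. The other members without GTATGT were RPL16A, RPL16B, RPL27A and RPL27B, which begin with GTACGT, RPL40A and RPL43B, which begin with GTATGC, and RPL43A, which begins with GTATGA.

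Nearly all of the 49 introns were spliced less completely in prp2-1. Relative to spliced reads, unspliced reads were higher in prp2-1 for 47 of them and lower for 0, at an adjusted p under 0.05 in edgeR's quasi-likelihood test with Benjamini-Hochberg adjustment over all 274 introns. The same test called 93.4% of all 274 introns higher, so the members' share is close to that of the whole table. No member was lower at an unadjusted p under 0.05 in edgeR, DESeq2 or limma, each with a count of 0. The libraries are bulk, so more cells with unspliced RNA and more unspliced RNA per cell cannot be told apart.

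The level left unspliced was low in both groups. The median unspliced percent over the 49 introns, which is the unspliced share of both read types, was 2.54%, 1.46% and 2.78% in prp2-1 libraries A, B and C, against 0.109%, 0.121% and 0.153% in the WT libraries. Every prp2-1 median lay above every WT median, and library B was the lowest of the prp2-1 libraries. The mean of these medians was 2.26% ± 0.706 in prp2-1 and 0.128% ± 0.0227 in WT. RPS introns stood at 2.44% ± 0.932 in prp2-1 and 0.140% ± 0.0104 in WT, while introns of the other genes stood at 91.1% ± 3.03 in prp2-1 and 10.5% ± 0.410 in WT. By mean percent, 40 members lay between 1% and 10% in prp2-1, 4 lay under 1% and 5 over 10%, 1 of which was over 50%. In WT 42 lay under 1%, 5 between 1% and 10%, and 2 over 10%.

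**Figure D1:**
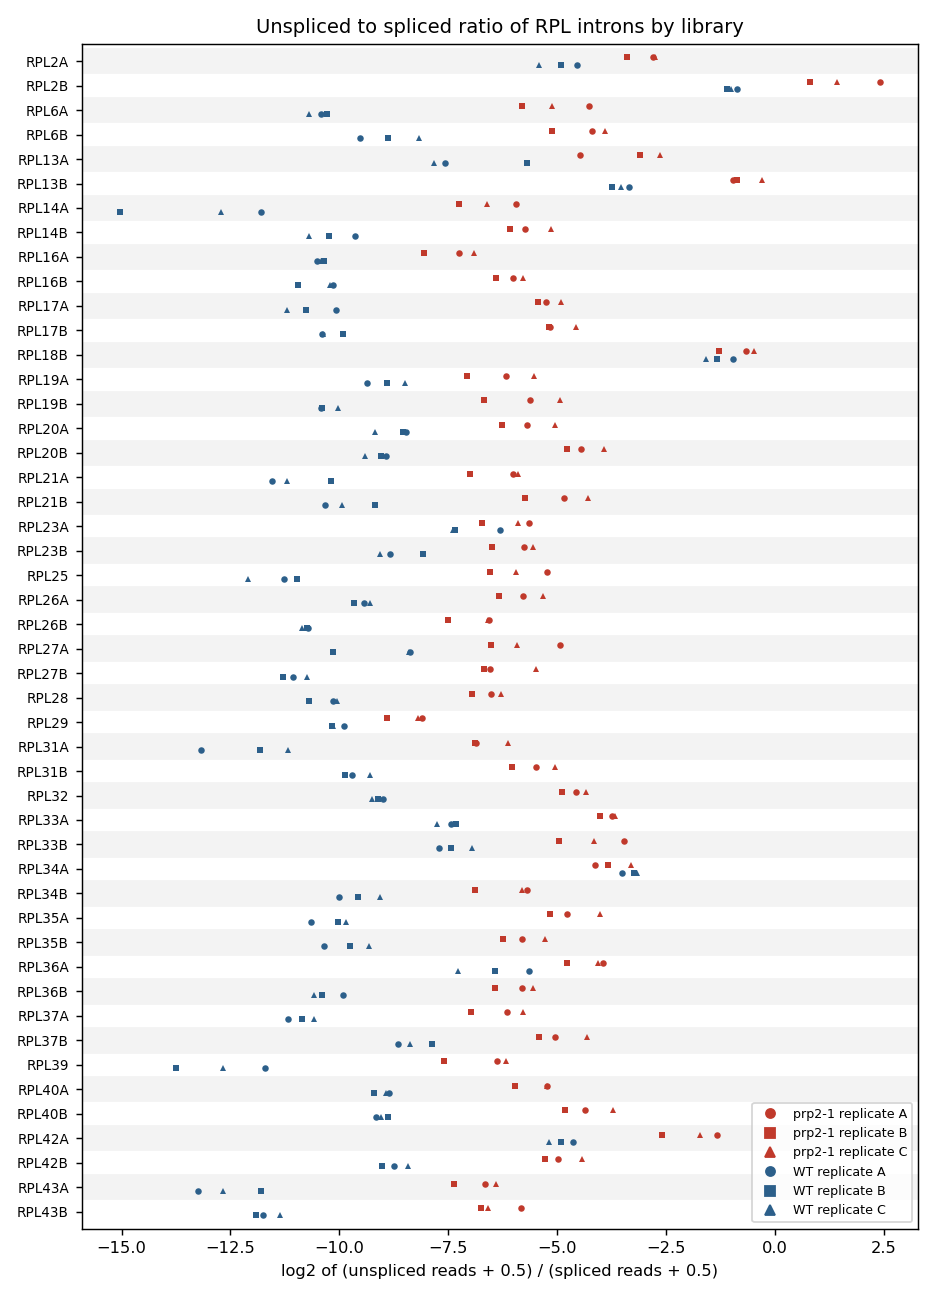
Log2 of the unspliced to spliced ratio, with 0.5 reads added to each count, for 48 of the introns in each of 3 prp2-1 libraries (red) and 3 WT libraries (blue). In RPL34A, RPL18B and RPL23A the red and blue points overlap, and in the others shown all 3 red points lie to the right of all 3 blue points.

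On the log2 scale of the ratio the members changed by a median of 4.01 (quartiles 3.10 and 4.80, range -0.44 to 6.42). The medians were 3.73 over 45 RPS introns, 43 of them higher in prp2-1, 3.64 over 10 introns of the other large subunit genes, all 10 higher, and 5.40 over 170 tested introns of other genes, 156 of them higher. The unspliced percents of the 2 groups did not overlap, with prp2-1 above, in 46 of 49 members, and this was so for 92% of all 274 introns.

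**Figure D2:**
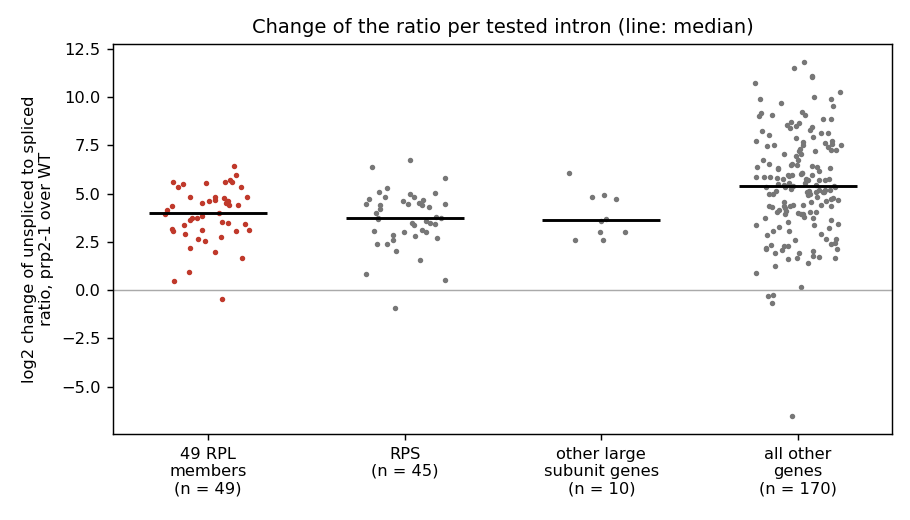
Log2 change of the unspliced to spliced ratio, prp2-1 over WT, of each tested intron in 4 lists, with horizontal lines at the medians. The 49 members have a median of 4.01, and the line for 170 introns of other genes is at 5.40.

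The change came with more unspliced reads and, for most members, with little change of spliced reads on the scale of all targeted introns. Relative to all targeted introns, unspliced reads were higher in 47 of 49 members and lower in 0, with a median log2 change of 4.24 (90.9% of all introns were called higher and 2.19% lower, edgeR). Summed over the 3 libraries, a member had between 31 and 6322 unspliced reads in prp2-1, with a median of 830, and between 1 and 1535 in WT, with a median of 47. In 12 members the WT sum was under 20 reads, so their WT percents rest on few reads. Spliced reads were higher in 7 members and lower in 6, with a median log2 change of 0.03 (6.2% of all introns were called higher and 57.7% lower). Over introns of the other genes the median log2 change of spliced reads was -2.67. The 49 introns held 43.5% of all reads in prp2-1 and 44.5% in WT, so a member median near 0 is partly set by this scaling. Scaled to introns of the other genes, the members' median spliced change was 0.28. Scaled to introns over 98% unspliced in WT, it was -0.23. Absolute levels were not measured.

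The direction of single spliced changes rested on the scaling. Relative to introns of the other genes 16 members were higher and 0 lower in spliced reads, where 12.8% of all introns were called higher and 47.8% lower. Relative to 13 introns that stayed over 98% unspliced in all WT libraries 0 members were higher and 7 lower, where 0.73% of all introns were called higher and 59.5% lower. These scalings moved the median spliced change of all introns by 0.24 and -0.25. RPL23B (a protein at the face toward the small subunit) had 15933, 20012 and 14950 spliced reads in prp2-1 libraries A, B and C, against 9886, 9647 and 16394 in the WT libraries. Its spliced reads were higher by a log2 change of 0.41 (adjusted p = 0.0179, edgeR), and this was 0.15 (adjusted p = 0.588) relative to the introns over 98% unspliced in WT. RPL17A, at the exit tunnel, changed by 0.36 (adjusted p = 0.0428) and RPL26B by 0.30 (adjusted p = 0.0174), and relative to the same introns neither was called. RPL19A, which forms a bridge to the small subunit, fell by 0.33 (adjusted p = 0.0169), RPL14B by 0.28 (adjusted p = 0.0117) and RPL16A by 0.28 (adjusted p = 0.0201), and relative to introns of the other genes none of these was called. The count of 7 higher members was 3 without prp2-1 library B, and 1, 0 and 3 without WT library A, B and C. The count of 6 lower ones was 3 without WT library B and 0 without WT library C. For spliced reads no member was called in the same direction under all 5 scalings.

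**Figure D3:**
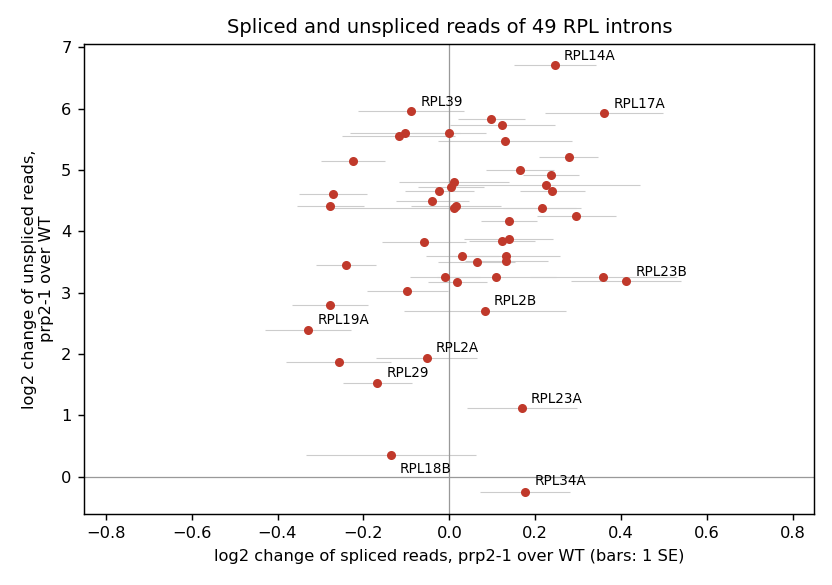
Log2 change of unspliced reads (vertical) against that of spliced reads (horizontal, bars 1 SE), prp2-1 over WT, for the 49 introns, each relative to all targeted introns. Spliced changes run from -0.33 (RPL19A) to 0.41 (RPL23B), while unspliced changes reach 6.71 in RPL14A.

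Total reads, the sum of both types, were higher in 10 members and lower in 6, where the table as a whole had 19.7% called higher and 23.7% lower. RPL2B, with a log2 change of 1.53 (adjusted p = 0.000773, edgeR), and RPL13B, with 0.94 (adjusted p = 0.00173), were the 2 members called higher under all 5 scalings, and in both most of the added reads were unspliced. RPL23B was higher by 0.43 (adjusted p = 0.023), a call lost relative to the introns over 98% unspliced in WT (0.17, adjusted p = 0.582). RPL19A fell by 0.31 (adjusted p = 0.0413), RPL16A by 0.27 (adjusted p = 0.0283) and RPL27B by 0.25 (adjusted p = 0.0256). Relative to introns of the other genes 19 members were called higher and 0 lower, where 34.3% of all introns were called higher and 16.4% lower. Relative to the introns over 98% unspliced in WT 2 were higher and 4 lower, against 9.85% and 33.2% of all introns. The 10 higher members became 6 without prp2-1 library B, and 2, 2 and 6 without WT library A, B and C. The 6 lower ones became 3 and 1 without prp2-1 library A and C, and 1, 0 and 0 without WT library A, B and C.

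The proteins of the functional centre, with those made as ubiquitin fusions, gave 7 members (RPL2A, RPL2B, RPL28, RPL40A, RPL40B, RPL42A and RPL42B). The ratio was called higher in prp2-1 in all 7, where 93.4% of all 274 introns were. Their median log2 change was 3.56, from 1.98 to 4.78. RPL2 sits at the peptidyl transferase centre, and its 2 introns were among the least completely spliced of the list. RPL2B (YIL018W) had 749, 432 and 578 unspliced reads beside 139, 248 and 215 spliced reads in prp2-1 libraries A, B and C, against 69, 72 and 124 unspliced beside 126, 154 and 249 spliced in the WT libraries. Its unspliced percent of 73.6% ± 10.4 in prp2-1, against 33.5% ± 1.78 in WT, was the highest of all members in both groups in the full table, with a log2 ratio change of 2.54 (SE 0.41, adjusted p = 3.21e-06, edgeR). The authors also deposited a table of reads drawn at random from the libraries. There, summed over 5 draws, RPL2B was at 60.7% ± 8.81 in prp2-1 and 20.6% ± 0.605 in WT, and RPL18B lay above it in WT, at 32.1% ± 5.64. RPL13A, with 8, 16 and 16 unspliced reads over those draws in prp2-1 libraries A, B and C, lay above it in prp2-1, at 77.3% ± 20.8.

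RPL2A (YFR031C-A), with the shortest intron, was at 12.6%, 8.65% and 12.8% in prp2-1, against 4.10%, 3.20% and 2.29% in WT. The groups did not overlap, and the log2 ratio change was 1.98 (SE 0.34, adjusted p = 8.66e-06, edgeR). This value moved with the table used: in the authors' table of drawn reads RPL2A had 2.78 times the share of unspliced reads that it has in the full table, and its change in 1 draw was 0.56 (adjusted p = 0.107).

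RPL42A, whose protein lies at the site where spent tRNA leaves, was at 28.4%, 14.2% and 23.4% in prp2-1, against 3.76%, 3.14% and 2.62% in WT, a log2 ratio change of 3.07 (SE 0.39, adjusted p = 8.79e-08, edgeR). Over the 5 draws its percents were lower in prp2-1, at 16.7%, 7.21% and 13.3%, against 2.52%, 2.26% and 2.83% in WT, and its change in 1 draw was 2.25. RPL42B, the major copy, was at 3.35% ± 1.01 in prp2-1 and 0.237% ± 0.0508 in WT. Spliced reads of RPL42A over RPL42B came to 0.0227 ± 0.00262 in prp2-1 and 0.0201 ± 0.00147 in WT. Both copies were higher in prp2-1 in unspliced percent, and neither overlapped between groups.

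The RPL40 copies encode ubiquitin joined to a ribosomal protein. RPL40A was at 2.25% ± 0.586 in prp2-1 and 0.19% ± 0.0237 in WT (log2 ratio change 3.56, adjusted p = 2.58e-09, edgeR), and RPL40B at 5.07% ± 1.88 in prp2-1 and 0.184% ± 0.0182 in WT (4.78, adjusted p = 3.62e-11). RPL28, the protein in which cycloheximide resistance arises, had 306, 267 and 333 unspliced reads in prp2-1 libraries A, B and C, against 18, 14 and 26 in the WT libraries. Its log2 ratio change of 3.73 (adjusted p = 2.18e-09) lay near the middle of the list.

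Proteins that bind early in assembly of the subunit gave 17 members, among them RPL18B and those of RPL6, RPL13, RPL14, RPL16, RPL20, RPL32, RPL33 and RPL36. The ratio was called higher in prp2-1 in 16 of the 17, where 93.4% of all 274 introns were. RPL18B, with a change of 0.49, did not pass the threshold. The median log2 change was 4.35, and the values ran from 0.49 to 6.42. RPL14A (YKL006W) stood at the top of the list. It had 272, 172 and 248 unspliced reads in prp2-1 libraries A, B and C, against 3, 0 and 3 in the WT libraries, where spliced reads numbered 12504, 16896 and 23376. The mean percents were 1.09% ± 0.474 in prp2-1 and 0.0123% ± 0.0120 in WT, a log2 ratio change of 6.42 (SE 0.58, adjusted p = 2.05e-10, edgeR). The 0 reads in WT library B allow a percent of up to 0.0178%, counting error only, and 6 WT reads in all set how well the size of this change is known. In the drawn table it was 5.49, the third largest.

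RPL6A was at 3.15% ± 1.61 in prp2-1 and 0.0595% ± 0.00884 in WT (log2 ratio change 5.61, adjusted p = 1.89e-10, edgeR), and its change in the drawn table was 6.48, the largest there. RPL13B, with few reads of either type, was at 34.0%, 35.4% and 45.1% in prp2-1, against 8.62%, 6.62% and 7.64% in WT (2.89, adjusted p = 1.72e-06; 1.83 in the drawn table). Its copy RPL13A had 4, 17 and 10 unspliced reads in prp2-1 libraries A, B and C, against 0, 1 and 0 in the WT libraries. From summed reads the RPL13A ratio was 28.0-fold higher in prp2-1, with a 95% counting interval from 4.60 to 1147. The interval is wide because of the single WT read, and the authors' drawn table held 0.0600 times the RPL13A spliced share of the full table. RPL31A, in the exit tunnel group, was the other member with 3 or fewer WT unspliced reads, and its ratio was 54.0-fold higher (interval 18.2 to 264).

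RPL16A, at 0.617% ± 0.228 in prp2-1 and 0.0717% ± 0.00404 in WT, had one of the 3 lowest percents in prp2-1, with a log2 ratio change of 3.04 (adjusted p = 7.79e-08, edgeR). RPL36A was at 6.01%, 3.50% and 5.60% in prp2-1, against 1.91%, 1.11% and 0.612% in WT, a change of 2.16 (adjusted p = 4.09e-05). It was among the 5 smallest changes past the threshold. Summed over 5 draws, its percents were lower in both groups, 3.56% ± 0.688 in prp2-1 and 0.409% ± 0.217 in WT, which sets them further apart as a ratio, and the change in 1 draw was 2.2. RPL32, a gene with 1 copy, was at 4.02% ± 0.707 in prp2-1 and 0.179% ± 0.0148 in WT (4.53, adjusted p = 1.9e-11).

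Proteins around the exit tunnel, through which the new peptide leaves, gave 14 members, of RPL17, RPL19, RPL25, RPL26, RPL31, RPL35, RPL37 and RPL39. The ratio was called higher in prp2-1 in all 14, where 93.4% of all 274 introns were. Their median log2 change was 4.62, from 2.67 to 5.99. RPL39, one of the smallest ribosomal proteins, had 233, 139 and 242 unspliced reads in prp2-1 libraries A, B and C, against 5, 1 and 3 in the WT libraries. Its percents were 1.02% ± 0.448 in prp2-1 and 0.0151% ± 0.0114 in WT, with a log2 ratio change of 5.99 (SE 0.55, adjusted p = 2.47e-10, edgeR), and 5.38 in the drawn table. RPL25, where the signal recognition particle docks, was at 1.76% ± 0.789 in prp2-1 and 0.0339% ± 0.0133 in WT (5.63, adjusted p = 8.86e-11). Both genes have 1 copy, and in the full table both stand among the 5 largest changes. For RPL25 this rests on 4, 6 and 3 unspliced reads in WT libraries A, B and C, and it did not hold in the drawn table. The 5 draws together held 139, 141 and 125 RPL25 unspliced reads in WT libraries A, B and C, more than the full table counts. Its percents there were 2.55% ± 0.926 in prp2-1 and 0.786% ± 0.0203 in WT. The WT percents were between 17.6 and 39.3 times those of the full table and the prp2-1 percents between 1.36 and 1.62 times. The change in 1 draw was 1.75 (adjusted p = 0.000138), which placed RPL25 at 43 of 48 members.

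RPL35B was the member at the median, with 510, 513 and 872 unspliced reads in prp2-1 libraries A, B and C, against 17, 32 and 52 in the WT libraries. Its percents were 1.87% ± 0.618 in prp2-1 and 0.114% ± 0.0403 in WT (log2 ratio change 4.01, adjusted p = 1.08e-09, edgeR). RPL19A had the smallest change of the exit tunnel group, at 1.35%, 0.733% and 2.12% in prp2-1, against 0.142%, 0.200% and 0.273% in WT (2.67, adjusted p = 2.67e-06). It is also the placed member without TACTAAC in its last 200 bases. RPL17A had the third largest change of unspliced reads, 5.93 on the log2 scale, with 320, 279 and 339 reads in prp2-1 libraries A, B and C, against 6, 4 and 4 in the WT libraries. RPL26B had the third lowest percent in prp2-1, 0.873% ± 0.285, against 0.0555% ± 0.00243 in WT.

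The other 11 members (RPL21, RPL23, RPL27, RPL34 and RPL43 pairs and RPL29) had a median log2 ratio change of 3.41, from -0.44 to 5.70. The ratio was called higher in prp2-1 in 10 of them, where 93.4% of all 274 introns were. RPL43A was at 0.985%, 0.604% and 1.17% in prp2-1, against 0.00945%, 0.0274% and 0.0150% in WT, a change of 5.70 (SE 0.44, adjusted p = 1.44e-11, edgeR), and 4.74 in the drawn table. RPL29, a small protein that aids joining of the subunits, had the most reads of any member, 170743 per library on average. Its percent was the lowest in prp2-1, at 0.361%, 0.208% and 0.339%, against 0.104%, 0.0867% and 0.0880% in WT. The groups did not overlap, and its change of 1.67 (SE 0.36, adjusted p = 0.000129) was the smallest past the threshold among members without overlap.

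RPL23A passed the threshold narrowly, with overlapping groups. It was at 1.93%, 0.917% and 1.61% in prp2-1, against 1.21%, 0.569% and 0.562% in WT, a log2 ratio change of 0.95 (SE 0.45, adjusted p = 0.0476, edgeR). The call was lost without prp2-1 library A (0.72, adjusted p = 0.172) or C (0.87, adjusted p = 0.101) and without WT library B (0.79, adjusted p = 0.157) or C (0.74, adjusted p = 0.201). It was also lost under 4 other alternatives, and over all 8 the adjusted p ran between 0.0507 and 0.201.

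RPL34A and RPL18B were the 2 members not past the threshold, and both were among the 3 highest unspliced percents in WT. RPL2B, the highest in WT at 33.5%, did pass it, with a log2 ratio change of 2.54. RPL34A (YER056C-A) had 338, 464 and 568 unspliced beside 5878, 6627 and 5566 spliced reads in prp2-1 libraries A, B and C, against 354, 524 and 657 unspliced beside 4054, 4964 and 5910 spliced in the WT libraries. Its mean percent was 7.08% ± 1.97 in prp2-1 and 9.19% ± 1.03 in WT, and it was the one member with a negative ratio change, -0.44 (SE 0.32, adjusted p = 0.186, edgeR). Without prp2-1 library C, the highest of its group, the change was -0.67 (adjusted p = 0.0307). RPL18B (YNL301C) had 389, 387 and 385 unspliced beside 615, 941 and 538 spliced reads in prp2-1, against 252, 262 and 339 unspliced beside 494, 659 and 1011 spliced in WT. Its mean percent was 36.5% ± 6.57 in prp2-1 and 29.1% ± 4.37 in WT, a change of 0.49 (SE 0.34, adjusted p = 0.18), and without prp2-1 library B it was 0.72 (adjusted p = 0.0494).

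The order of members by percent was much the same in the 2 groups: across 49 members the mean percent in prp2-1 and that in WT had a Spearman's rho of 0.77. Members with more reads had lower percents, with a rho of -0.64 in prp2-1 and -0.58 in WT. These points share libraries, and the read number enters both the percent and the depth. The change of the ratio had a rho of -0.35 with intron length, -0.26 with GC content (both over 47 introns) and 0.02 with the distance of the branch point to the 3′ end (46 introns). The 39 introns with GTATGT had a median change of 4.01 and the 8 with other letters 4.05.

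The 22 pairs allowed copy A to be set against copy B within the same libraries. In the edgeR fit used below, a shift of the unspliced share common to both copies in a library went into the error. Only the limma fit, an alternative, took the difference between the copies of a pair within each library. Of these pairs 9 encode identical proteins, and the lowest identity was 89.9% (RPL16), while the introns of a pair were between 33.2% and 64.8% identical (median 53.4%). The sources used here do not say how reads were assigned to the copies. Over the first 60 bases of exon 2 the copies differed at 1 base in RPL34 and RPL42, among others, at 2 in RPL2, RPL14, RPL21 and RPL35, and at up to 13 in RPL16 (median 4), so reads of a pair may have been split between copies with some error and each copy's level is uncertain to that extent.

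In prp2-1 the ratio differed between copies in 15 of 22 pairs, 5 with A higher, at an adjusted p under 0.05 in an edgeR fit over all 45 A and B pairs of the table, of which 66.7% were called. With the drawn counts 12 of 22 were called in prp2-1, where 60% of the 45 were called, and 10 of the 15 kept their call and direction, while RPL13 turned in direction. In WT the ratio differed in 14 of 22, 7 with A higher, where 57.8% of the 45 were called, and with the drawn counts in 7 of 22, where 33.3% of the 45 were called. In the full table the difference was called in both groups in 10 pairs (44.4% of the 45 were), and in all 10 the same copy was higher in both. With the drawn counts 5 pairs were called in both groups (26.7% of the 45 were), and 4 of these were among the 10, RPL34, RPL37 and RPL42 included. The median size of the difference was 1.15 in prp2-1 and 1.75 in WT on the log2 scale, and it was smaller in prp2-1 in 15 of 22 pairs. By these estimates most pairs lay closer together in prp2-1, and no test was made over the pairs as a set. The SE of the difference was larger in WT than in prp2-1 in every pair, with 0.99 and 0.51 in RPL13. The part of this larger error in the WT differences was not tested.

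**Figure D4:**
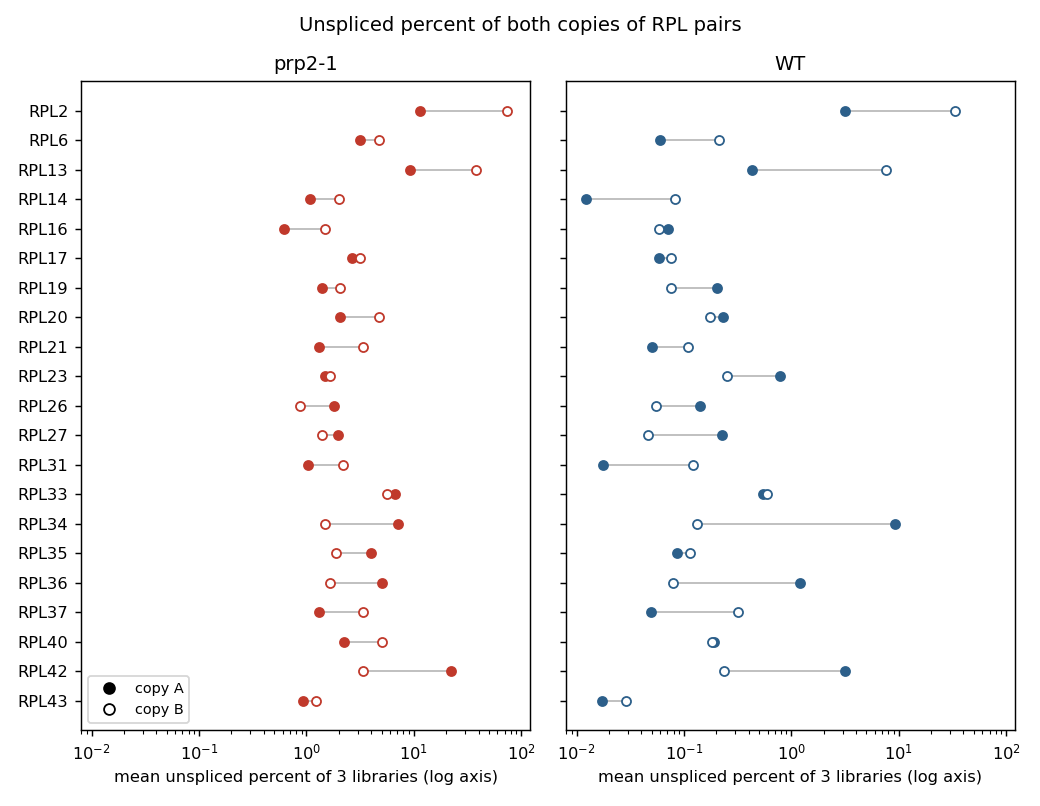
Mean unspliced percent over 3 libraries (log axis) of copy A (filled) and copy B (open) of 21 pairs, in prp2-1 (left panel) and WT (right panel), with a line joining the copies. The widest gap in WT among those shown is in RPL34, and it is narrower in prp2-1.

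In RPL34 copy A held more of the unspliced reads. RPL34B had 225, 164 and 254 unspliced reads in prp2-1 libraries A, B and C, against 10, 17 and 28 in the WT libraries, with percents of 1.5% ± 0.580 in prp2-1 and 0.134% ± 0.0450 in WT. The log2 ratio of A over B was 2.37 (SE 0.41, adjusted p = 7.08e-08, edgeR) in prp2-1 and 6.23 (SE 0.46, adjusted p = 2.19e-33) in WT. Here the copy with the higher unspliced share, RPL34A, gave 0.508, 0.340 and 0.390 times the spliced reads of the other in prp2-1 and 0.375, 0.372 and 0.384 times in WT.

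RPL13 also differed in WT, by -4.11 (SE 0.99, adjusted p = 0.000105, edgeR), which rests on 1 unspliced read of RPL13A in 3 libraries. From summed WT reads the RPL13B ratio was 23.2 times that of RPL13A, with a 95% counting interval from 3.82 to 953. In the drawn table this pair's difference was -0.66 (adjusted p = 0.481) in WT, and in prp2-1 it was 2.26 there, against -2.65 from the full table. RPL2 differed by -4.53 in prp2-1 and -3.97 in WT in the full table, and by -2.43 in prp2-1 and -0.48 in WT in the drawn table, where the WT difference was not called (adjusted p = 0.447). In RPL42 and RPL36 copy A, the one with fewer reads, was the higher one in both groups. RPL42 differed by 3.02 in prp2-1 and 3.79 in WT in the full table, and by 2.05 in prp2-1 and 3.21 in WT in the drawn table. RPL36 differed by 1.66 in prp2-1 and 3.89 in WT, and the prp2-1 difference was lost with the drawn counts (0.85, adjusted p = 0.164).

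The change itself differed between copies in 8 of 22 pairs, against 35.6% of the 45 pairs of the table, so the members' share was close to the background. It was larger for copy A in 2 pairs, RPL35 among them, and larger for copy B in RPL34, RPL36, RPL19, RPL23, RPL27 and RPL20. The difference of the log2 changes, A minus B, was -3.86 in RPL34 (SE 0.60, adjusted p = 8.35e-09, edgeR), and it was called under every alternative tried. RPL36 differed by -2.23 (SE 0.64, adjusted p = 0.00287), a call lost in the drawn table (-2.55, adjusted p = 0.0876).

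The calls of RPL19, RPL23, RPL27, RPL20 and RPL35 were lost when single libraries were left out, and all 5 also in the drawn table. RPL19 differed by -1.94 (adjusted p = 0.0192, edgeR), and the call was lost without prp2-1 library A and without each WT library (adjusted p between 0.0515 and 0.123). RPL23 differed by -1.79 (adjusted p = 0.0262), and the call was lost without prp2-1 library C and without WT library A or C (adjusted p between 0.0519 and 0.25). In both, copy A was the one with the higher WT ratio and copy B changed more.

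RPL27 differed by -1.71 (adjusted p = 0.0232, edgeR), and the call was lost without prp2-1 library B or C and without WT library A or C (adjusted p between 0.0592 and 0.183). RPL20 differed by -1.70 (adjusted p = 0.0262), and the call was lost without prp2-1 library A and without each WT library (adjusted p between 0.0631 and 0.125). In the drawn table the RPL20 difference turned in direction, to 0.27 (adjusted p = 0.783). RPL35 differed by 1.5 (adjusted p = 0.0361), and the call was lost without any library but prp2-1 B (adjusted p between 0.052 and 0.149). The count of 8 pairs was 5 without prp2-1 library A or C or WT library B, and 3 without WT library A or C. It was 13 with limma on the differences between the copies within each library. In the drawn table it was 3, where 15.6% of the 45 pairs were called. In RPL20, whose copy A begins with GTGAGT, the copies differed by -1.29 (adjusted p = 0.00347) in prp2-1, with RPL20A the lower one, and by 0.42 (adjusted p = 0.504) in WT.

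**Figure D5:**
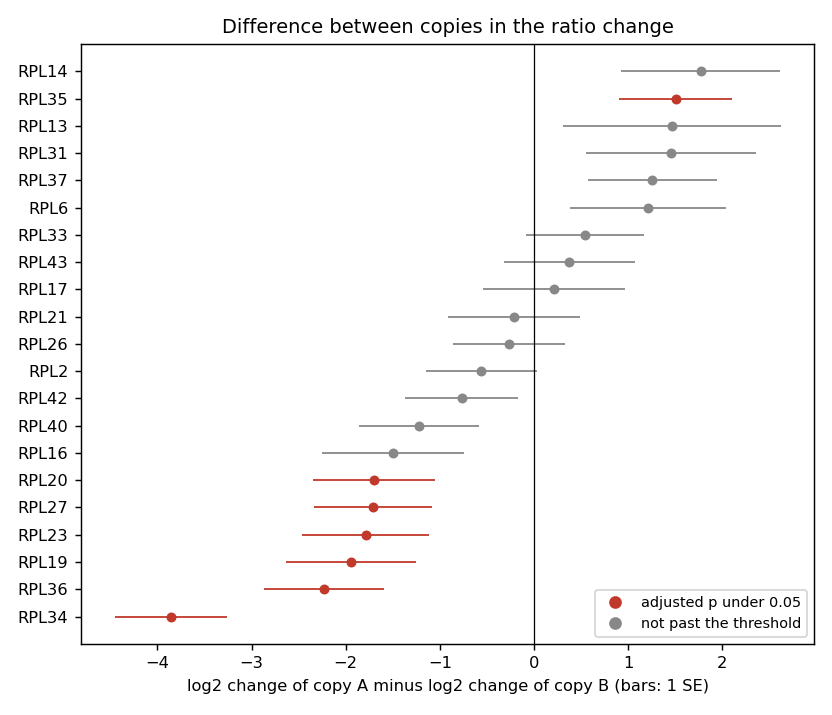
Log2 change of the unspliced to spliced ratio (prp2-1 over WT) of copy A minus that of copy B for 21 pairs, with bars of 1 SE and pairs at an adjusted p under 0.05 in red. RPL34 lies at -3.86, and the 14 pairs in grey are not past the threshold in the edgeR fit.

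In 20 of the 22 pairs the copy with the higher ratio in WT had the smaller change. This count uses the WT value on both sides, so it is given as a description.

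Since reads may be shared between copies, both copies of each pair were also summed before the test, a setting chosen after the data were seen. The ratio was then called higher in prp2-1 in 26 of 27 features (21 of 22 pairs and the 5 single genes), where 93% of 229 features of the table were called. The exception was RPL34, whose sum was at 3.13%, 2.35% and 3.98% in prp2-1, against 2.39%, 2.87% and 3.12% in WT (log2 ratio change 0.15, adjusted p = 0.642, edgeR). The groups overlapped, and most WT unspliced reads of this sum were those of RPL34A. The RPL2 sum was at 25.7% ± 8.08 in prp2-1 and 6.08% ± 0.928 in WT (2.39, adjusted p = 5.15e-07).

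The balance of spliced reads between copies, which needs no scaling, also lay apart between the groups in some pairs. The ratio of spliced reads of A over B did not overlap between the groups in 9 of 22 pairs, with A over B higher in prp2-1 in 4. Of all 45 pairs 46.7% did not overlap, so the members' share was not above that of the whole table. These ratios also rest on how reads were assigned to the copies, which is not known here. In RPL14 it was 3.32, 3.67 and 3.83 in prp2-1 libraries A, B and C, against 2.41, 2.55 and 2.57 in the WT libraries. In RPL26 it was 0.565, 0.512 and 0.602 in prp2-1, against 0.798, 0.776 and 0.844 in WT. Copy A of RPL14 thus held more of the pair's spliced reads in prp2-1, and copy A of RPL26 less. In RPL36, where copy A was the minor one, the ratio was 0.0252 ± 0.00241 in prp2-1 and 0.0355 ± 0.00185 in WT. RPL17 stood at 1.42 ± 0.0507 in prp2-1 and 1.20 ± 0.0428 in WT. With 3 libraries against 3 no single pair can reach an exact two-sided permutation p under 0.1, and none was tested.

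The table of drawn reads, summed over its 5 draws of the largest depth, was set against the full table, and 26 of the 49 members had an unspliced percent more than 1.5 times off between it and the full table in at least 1 library. Of the 294 percents 54 were counted as off, 13 in prp2-1 libraries and 41 in WT libraries. A percent of 0 in the full table gives no such ratio and was not counted as off. That of RPL13A in WT library C was one of these, and it was 37.5% over the draws. Summed over the libraries, 10 members took a share of reads more than 1.5 times off. These were RPL2B, RPL13A, RPL13B, RPL19B, RPL40B and RPL42A in spliced reads and RPL2A, RPL25, RPL33A and RPL36A in unspliced reads. RPL42A had 2.73 times the spliced share of the full table and RPL25 had 1.74 times the unspliced share, a sum that covers the far larger gap in WT given above. Of these 10 members 9 could be tested in 1 draw, and the ratio was called higher in prp2-1 in 8, all but RPL2A.

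The sums of the other 18 of the 26 lay within 1.5 times. They were RPL6A, RPL14B, RPL17B, RPL20B, RPL21A, RPL21B, RPL23A, RPL23B, RPL26B, RPL27A, RPL31A, RPL35A, RPL37A, RPL39, RPL40A, RPL42B, RPL43A and RPL43B. In 1 draw 44 of 48 tested members were called higher in prp2-1, where 93.1% of 260 introns tested were called higher. RPL34A was again the one with a negative change. The change moved by more than 1.5 times in 15 of the 48 members, smaller in the drawn table in 13 and larger in RPL6A and RPL37A. The median change of the 48 was 3.54 in the drawn table and 3.97 in the full table. What made the tables differ was not tested.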

How the data were processed

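Per the labels' protocols, RNA of 3 prp2-1 and 3 WT libraries was made into MPE-seq libraries from 10 µg of RNA each. Per the submitters' processing notes, fastp 0.19.5, HISAT2 2.2.1 and SAMtools were used with build R64. The authors deposited raw counts of spliced and of unspliced reads for each intron and library, not normalized. The sources used here do not say how reads were called spliced, given to gene copies or collapsed. A second deposited count table holds 5 random draws at each of 3 depths. The columns headed as depth and as draw appear swapped and were read so, and the lowest-numbered draw of 800000 reads, of which a mean of 551593 were counted, was tested as an alternative, while percents and shares were compared over the sum of the 5 draws at that depth, which can hold a read more than once.

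The unspliced to spliced ratio was tested in edgeR 4.0.16 (R 4.3.3, quasi-likelihood) with terms for library, read type and read type by genotype. Introns with a mean of at least 10 reads were tested, and p-values were adjusted (Benjamini-Hochberg) over all 274, threshold 0.05. Spliced, unspliced and total reads were tested by genotype scaled by total reads with TMM factors. Pairs were fitted with terms for library and read type of each copy, and p-values were adjusted over 45 pairs. SEs are the log2 change over the square root of F. Alternatives were DESeq2 1.42.0, limma 3.58.1, other filters, scalings and pseudocounts, the drawn counts, a replicate block, leaving out each library, and pair sums, the last added after the data were seen. The scripts were tested on simulated counts in which no reads passed between copies, so this does not cover errors in assigning reads to copies. Intron positions and sequences were read from the R64 reference with its RefSeq annotation. Ranges for 0 reads use 3 counts. Intervals are exact conditional intervals at 95% (SciPy 1.17.1). Both cover counting error only, since the use of molecular identifiers is not given.

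The members and lists were chosen with earlier results of these data known. Named with values are the 5 largest and 5 smallest ratio changes past the threshold without overlap, the median member, members not past it, the 5 highest and 3 lowest percents in prp2-1 and 3 highest in WT. Also named are the 3 largest rises and falls of each read type, the 5 pairs with the largest difference of change and 3 in WT, RPL2A, RPL2B, RPL18B, RPL25, RPL28, RPL29, RPL32, RPL39, RPL40A and RPL40B, and members off in the drawn table. Of the genes so chosen 1 is not reported here by itself or in its pair. RPL23A and other pairs were named after their values were seen. The labels do not say that libraries with the same letter are pairs, so the main fits did not take them as such. Deviations from the group means correlated by 0.0924 (A), 0.205 (B) and 0.272 (C) between libraries with the same letter. Between different letters the correlations ran from -0.286 to 0.0834. A block by letter was fitted as an alternative.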

Additional observations from a re-analysis of the deposited data

How the results depend on the processing

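The count of 47 members with a higher ratio was between 44 and 48 under all alternatives, and the members' median percents moved by less than 1 SD under theirs. Leaving out 1 library gave between 0 and 1 members with a lower ratio and between 0 and 1 with fewer unspliced reads, the 1 being RPL34A without prp2-1 library C. Relative to introns over 98% unspliced in WT 1 member had fewer unspliced reads. Spliced reads were higher in 0 to 7 members and lower in 0 to 6 with 1 library left out, in 16 and 0 relative to introns of the other genes, and higher in 0 relative to introns over 98% unspliced. Total reads were higher in 2 to 11 and lower in 0 to 4 with 1 library left out, in 19 and 0 relative to introns of the other genes, higher in 2 relative to introns over 98% unspliced, and lower in 0 with DESeq2 size factors. These 2 scalings moved the median total change of all introns by 0.23 and -0.29. The change differed between copies in 3 to 10 pairs with 1 library left out, in 13 with limma and in 3 with drawn counts, where the WT ratio differed in 7 pairs. With drawn counts 2 differences reversed, that of the change in RPL20 (0.27) and that in prp2-1 in RPL13 (2.26). For reversals and lost calls the cause was not tested.

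With the replicate letter as a block the ratio was higher in 47 members, and the 3 pair counts were 8 (change), 15 (prp2-1) and 14 (WT). Spliced reads were then higher in 8 and lower in 7, total reads in 12 and 6. Each library correlated best with the other group's library of the same letter, a hint from the data and not the design. Depth limits the WT values: 12 members had under 20 unspliced reads over the WT libraries.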
